A study of Mus musculus with 12 samples.

Results

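The Slc25 genes encode the mitochondrial carriers, and 40 members of this family, of the 17175 genes in the deposited table, are described here. Members were taken by name, as the genes whose symbol is Slc25a followed by a number. Of the family genes in the GENCODE M21 annotation, 5 had no row (Slc25a2, Slc25a21, Slc25a31, Slc25a41 and Slc25a54) and were not analysed here. RNA was sequenced from mouse small intestine in 4 groups of 3 libraries: Bmpr1a cKO distal, Bmpr1a cKO proximal, WT distal and WT proximal. Its product is a receptor of the BMP pathway, and in a conditional knockout (cKO) the gene is removed from chosen cells. Per the series text, the aim was to learn what BMP signalling in the epithelium does for the length of villi in different segments. The labels used here give neither the Cre driver, the strain nor the age, and do not say whether libraries of a group came from separate mice, so p-values measure the spread between these libraries, which may be technical.

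Mitochondrial carriers are small proteins of the inner mitochondrial membrane, each built from repeats of one basic unit. Each moves a particular set of solutes between the cytosol and the matrix, usually as an exchange of one solute for another. They bring ADP and phosphate in and let ATP out, pass the intermediates of the malate-aspartate and citrate shuttles, and supply the matrix with amino acids, cofactors and iron. Enterocytes, the absorptive cells that line the villi, rely on this traffic to oxidise glutamine and other nutrients and to make citrulline from ornithine.

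Libraries held 15225731 to 17722756 reads in the cKO groups and 11242024 to 16381314 reads in the WT groups. Values are scaled read counts, that is reads plus 1 divided by a size factor for the library, and differences between groups are on the log2(scaled count + 1) scale. Bmpr1a itself was at 555 ± 98.7 in cKO distal and 532 ± 96.6 in WT distal libraries, and at 943 ± 130 in cKO proximal and 940 ± 145 in WT proximal ones (mean ± SD, n = 3). A gene-level count covers exons outside any deleted part, so it checks neither the deletion nor the labels. Mitochondrially encoded genes took 11.5%, 9.95% and 27.7% of the reads in cKO distal, 9.75%, 14.8% and 11.3% in cKO proximal, 37.7%, 29.5% and 22.3% in WT distal and 17.4%, 26.0% and 24.9% in WT proximal libraries. Both cKO libraries numbered 1 held 0 reads of 4 Y-linked genes, against 1251 to 2390 in the other 10 libraries. The 8 epithelial markers were present in every group, with sums of 157030 to 259220 in cKO distal, 139590 to 170420 in cKO proximal, 117060 to 188770 in WT distal and 149290 to 201290 in WT proximal libraries. The 10 enterocyte markers summed to 513910 to 938650 in cKO distal, 657740 to 787740 in cKO proximal, 193960 to 514700 in WT distal and 422540 to 673990 in WT proximal libraries.

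The family's transcripts were led by the carriers of oxidative phosphorylation. Per exon length and library depth (RPKM), Slc25a5, the main ADP/ATP exchanger, averaged 881 over the 12 libraries and made up 51.4% of the summed level of the 40 members. Slc25a3, which imports phosphate, followed at 185 RPKM and Slc25a1, which exports citrate, at 88.0 RPKM. Slc25a45, Slc25a10, Slc25a11, Slc25a39 and Slc25a24 came next, between 56.4 and 74.1 RPKM. At the other end stood Slc25a18 (0.0878 RPKM) and Slc25a27 (0.0853 RPKM), a glutamate carrier and an uncoupling protein-like carrier known from brain, and the orphan Slc25a43 (0.266 RPKM). Slc25a18 had 1 to 7 reads, Slc25a27 1 to 13 and Slc25a43 0 to 14 reads in any library.

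In scaled counts Slc25a18 stood at 3.18, 2.49 and 2.13 in cKO distal, 6.06, 5.30 and 1.86 in cKO proximal, 2.44, 2.06 and 3.16 in WT distal and 8.42, 6.73 and 2.15 in WT proximal libraries. Slc25a27 stood at 2.12, 10.8 and 11.7 in cKO distal, 5.05, 6.36 and 1.86 in cKO proximal, 2.44, 14.4 and 3.16 in WT distal and 8.42, 4.49 and 5.37 in WT proximal libraries. For Slc25a18 and Slc25a27 the groups overlapped in each of the 4 comparisons, and no difference was detectable at this depth. The order of levels was loose. Of the 39 neighbouring pairs within a group, libraries overlapped in 35 in cKO distal, 25 in cKO proximal, 28 in WT distal and 26 in WT proximal. The lead of Slc25a5 over Slc25a3 and of Slc25a3 over the next member was without overlap in every group. The summed RPKM of the family was 1545 ± 339 in cKO distal, 1962 ± 25.2 in cKO proximal, 1314 ± 170.2 in WT distal and 2032 ± 99.9 in WT proximal libraries (SD, n = 3). RPKM counts mitochondrially encoded reads in the depth, and their share differed between groups. Of the other reads the family took 0.519 ± 0.0504% in cKO distal and 0.633 ± 0.024% in cKO proximal libraries (SD, n = 3). In WT it took 0.516 ± 0.0125% in distal and 0.708 ± 0.0591% in proximal libraries. The heat map shows each member against its own mean.

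**Figure D1:**
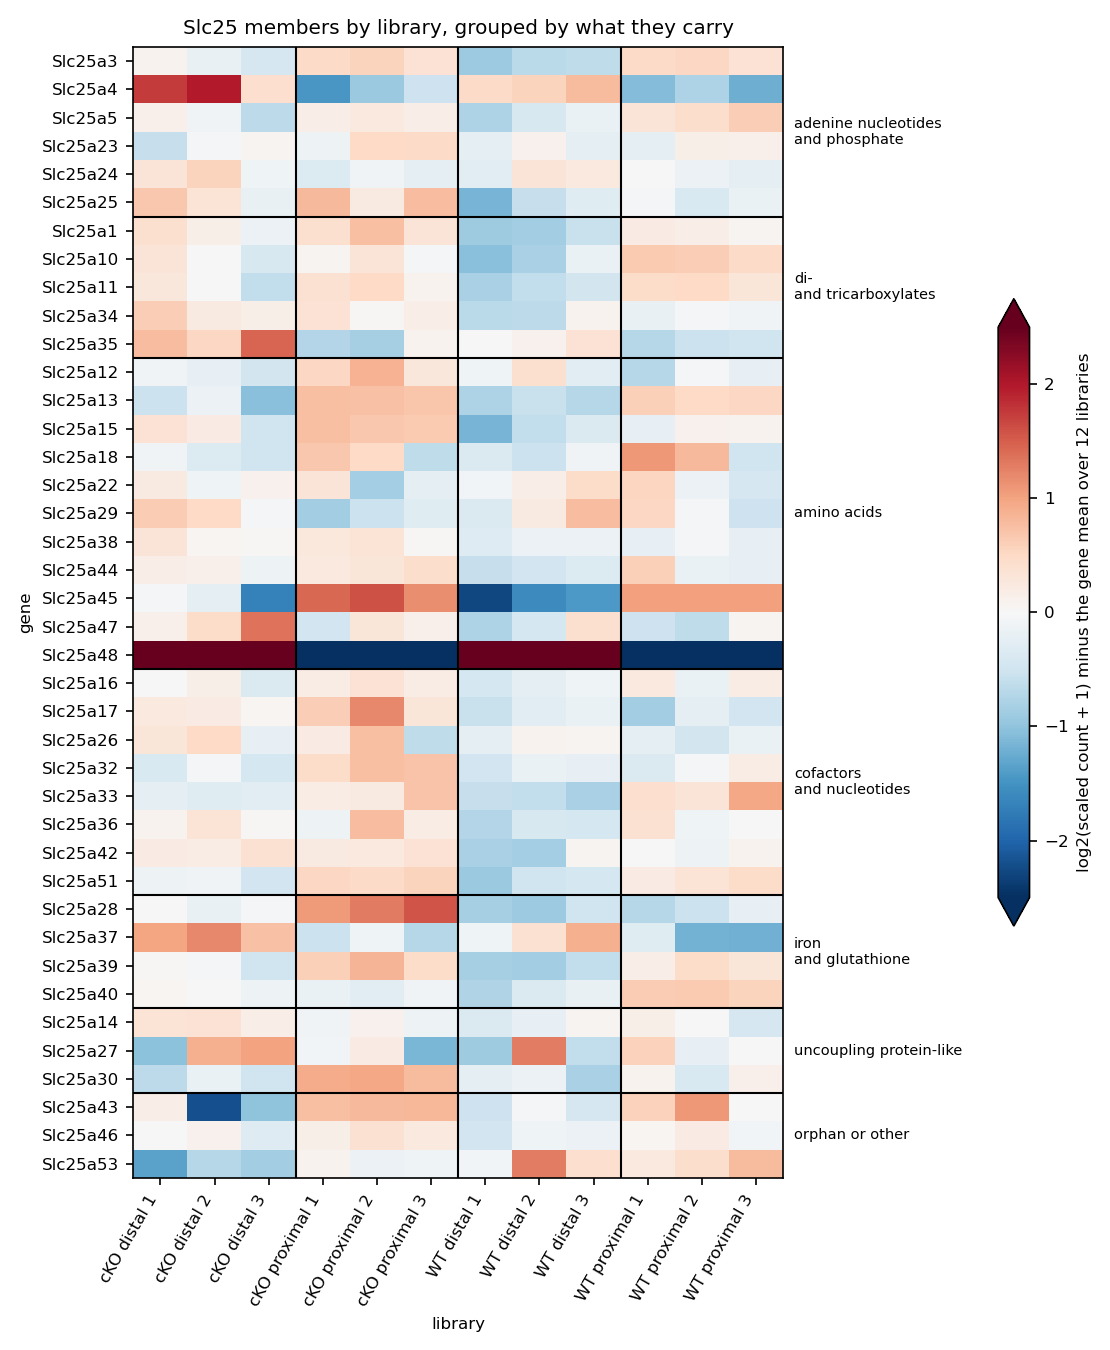
Each row is a member, grouped by solute with Slc25a48 placed among the amino acid carriers, and each column a library. The colour is log2(scaled count + 1) minus the gene's mean over the 12 libraries, limited to 2.5 either way. Slc25a48 is high in the 6 distal libraries and low in the 6 proximal ones, and Slc25a45 runs the other way.

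A few members stood out for the size of their segment or genotype difference, and their promoters are shown for reference: Slc25a48, present in distal libraries and near 0 in proximal ones, Slc25a45, highest in proximal libraries, and Slc25a28, highest in cKO proximal libraries. Each is the RefSeq sequence of build GRCm38.p6 covering 250 bases before and 50 after the annotated start, 5′ to 3′ on the gene's strand. Capitals mark matches to 9 short motifs searched on both strands. The Slc25a48 promoter lies at chr13:56438105-56438404 (plus strand), that of Slc25a45 at chr19:5877572-5877871 (plus strand) and that of Slc25a28 at chr19:43674832-43675131 (minus strand).
Slc25a48: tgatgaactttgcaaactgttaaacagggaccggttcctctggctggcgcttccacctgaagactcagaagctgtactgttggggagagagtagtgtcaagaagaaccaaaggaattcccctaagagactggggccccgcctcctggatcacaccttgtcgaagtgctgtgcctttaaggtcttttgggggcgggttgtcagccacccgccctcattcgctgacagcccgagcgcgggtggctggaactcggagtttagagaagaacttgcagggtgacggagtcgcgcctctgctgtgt
Slc25a45: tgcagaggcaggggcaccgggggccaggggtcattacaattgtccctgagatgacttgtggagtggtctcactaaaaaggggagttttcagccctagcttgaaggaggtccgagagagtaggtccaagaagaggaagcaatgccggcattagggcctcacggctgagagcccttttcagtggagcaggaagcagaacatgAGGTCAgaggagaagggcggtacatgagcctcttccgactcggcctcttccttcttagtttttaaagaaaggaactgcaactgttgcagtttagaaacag
Slc25a28: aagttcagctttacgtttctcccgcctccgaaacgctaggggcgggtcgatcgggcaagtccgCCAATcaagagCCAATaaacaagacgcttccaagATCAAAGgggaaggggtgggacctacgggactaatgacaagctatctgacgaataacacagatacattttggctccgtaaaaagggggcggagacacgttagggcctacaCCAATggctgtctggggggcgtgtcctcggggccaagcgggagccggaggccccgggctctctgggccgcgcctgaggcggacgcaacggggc

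The Slc25a28 window held CCAAT, the letters of the NF-Y box, at positions -187, -176 and -43 from the start and ATCAAAG, those of a TCF site, at -153. CCAAT was in 37.4% of all 32851 promoters of that length and in 16 of the 32 members with a promoter in the table. ATCAAAG was in 3.73% of all promoters and in 2 members. The Slc25a45 window held AGGTCA, a half-site of nuclear receptors, at -50, in 16.3% of all promoters and in 4 members. None of the 9 motifs occurred in the Slc25a48 window. Of the other motifs, TATAAA was in 13.6% of all promoters and 1 member. AGATAA (for GATA factors) was in 11.2% of promoters and 2 members. TTTATG (for CDX factors) was in 11.85% of promoters and 3 members. CAAAGTC (for HNF4) was in 4.44% of promoters and 2 members. GGCGCC (for SMAD factors) was in 11.9% of promoters and 4 members, and the NRF1 palindrome in 0.971% and 0. A match is a description of these letters only.

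Along the intestine of WT mice the carriers of phosphate, citrate, malate and oxoglutarate were lower in the distal segment. In WT, 12 of the 40 members were lower and 3 higher in the distal than in the proximal segment (limma on all 17175 genes, Benjamini-Hochberg adjusted p under 0.05). Those 15 are 37.5% of the members, against 24.1% of all genes tested, of which 12.2% were lower and 11.9% higher. The lower members included Slc25a3, Slc25a5, Slc25a1, Slc25a10, Slc25a11, Slc25a13 and Slc25a45, and the higher ones were Slc25a48, Slc25a4 and Slc25a37. The median difference was -0.33 over the members and 0.04 over all genes. In cKO mice, 9 members were lower and 4 higher, 32.5% of the members against 10.5% of all genes (6.36% lower, 4.16% higher). There Slc25a13, Slc25a39, Slc25a45 and Slc25a51 were again lower and Slc25a48, Slc25a4 and Slc25a37 again higher. The median was -0.32 over the members and -0.02 over all genes, with -0.18 over the members without cKO distal library 3. Marker genes of other cell types moved with the segments too. Of 10 enterocyte markers 5 were lower in the WT and 2 in the cKO distal segment, and of 8 T cell markers 5 and 6 were lower. Of 10 cycling cell markers 9 were higher in the WT distal segment, and in cKO 3 were higher and 1 lower. The 8 B and plasma cell markers were all higher in the WT distal segment, and of 6 smooth muscle markers 3 were higher in that of each genotype. The part of these cells in the members' differences was not tested, and fewer cells of a type and less RNA per cell cannot be told apart in tissue.

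All libraries of one segment lay apart from those of the other for 20 members in WT (16 lower and 4 higher in distal, 50% of members against 38.0% of all genes) and for 24 in cKO (18 lower and 6 higher, 60% against 30.1%). Of the 15 calls in WT, 13 held in each of the 21 alternative settings tried, the others being Slc25a5 and Slc25a15, and 6 of the 13 calls in cKO did. In cKO, without both libraries numbered 1, 7 of the 13 calls were left (5.02% of all genes passed). Those of Slc25a30, Slc25a32, Slc25a35 and Slc25a37 were lost in that setting alone.

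**Figure D2:**
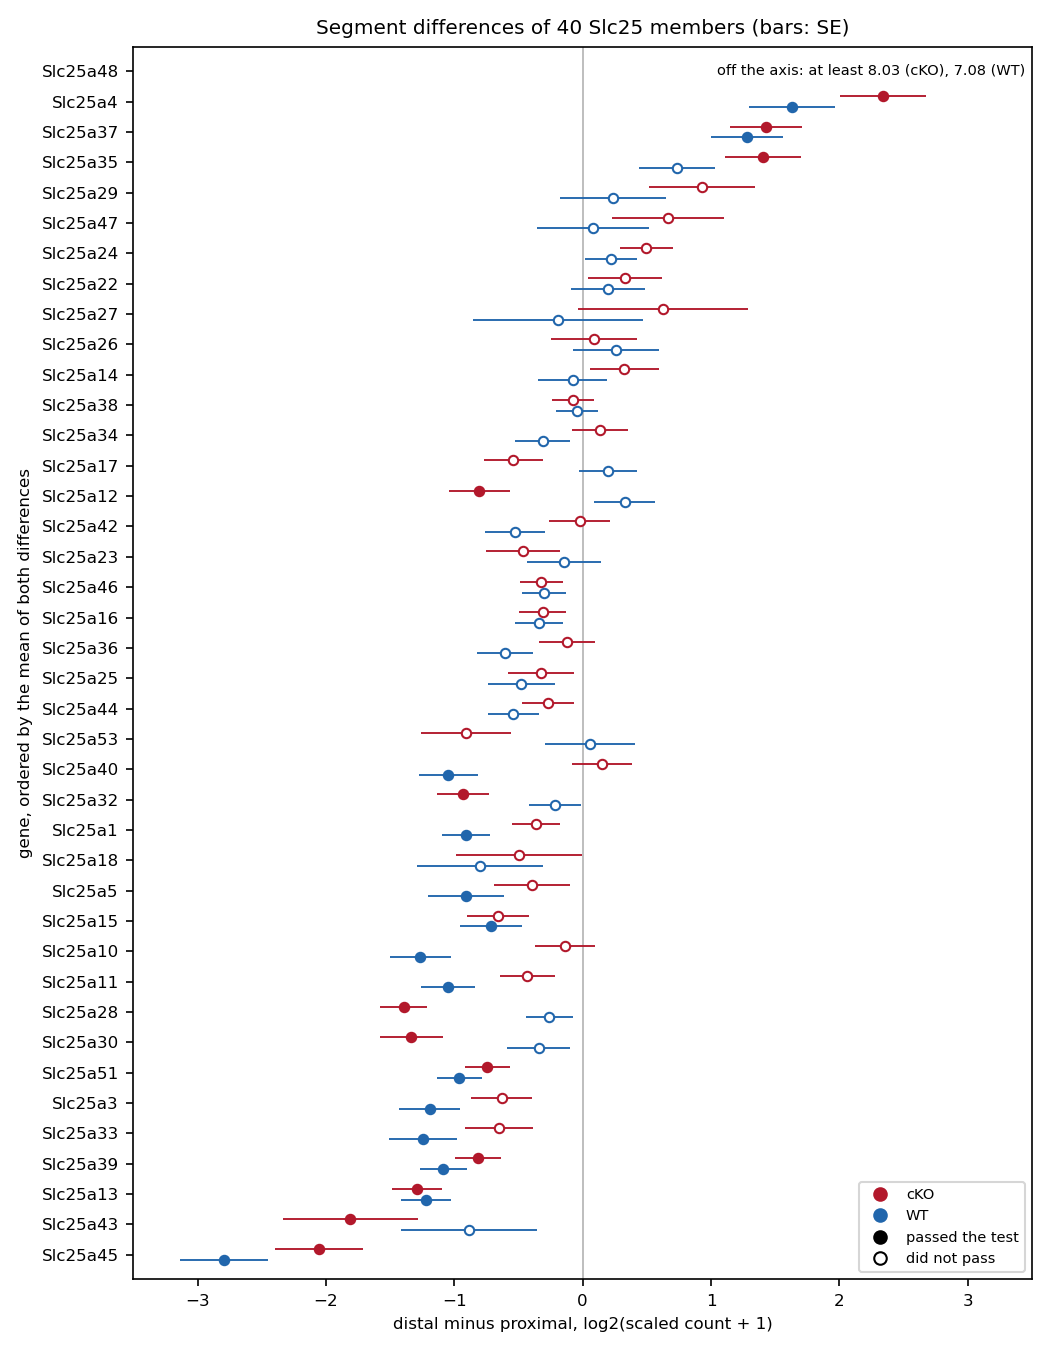
Difference of distal minus proximal libraries on the log2(scaled count + 1) scale for each member, with its standard error, in cKO (red) and WT (blue) mice; filled points passed the test. Slc25a48 lies off the axis, at 8.03 or more in cKO when proximal libraries are set to 3 reads each and at a fitted 7.08 in WT, and Slc25a45 is the lowest in both genotypes at -2.05 and -2.79.

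Between genotypes most members that passed were higher in cKO. In the distal segment, 9 members were higher and 1 lower in cKO than in WT, 25% of the members and 25% of all genes (13.3% higher, 11.7% lower). The higher members were Slc25a1, Slc25a15, Slc25a25, Slc25a28, Slc25a34, Slc25a36, Slc25a39, Slc25a42 and Slc25a45, and the lower one was Slc25a53. The median difference was 0.43 over the members and 0.06 over all genes, and 34 of the 40 lay above 0. With the mitochondrial share of reads as a covariate the median over the members was 0.23. In the proximal segment, 5 members were higher and 0 lower, 12.5% against 8.26% of all genes (4.21% higher, 4.05% lower): Slc25a28, Slc25a17, Slc25a30, Slc25a12 and Slc25a32. Among members with lower values Slc25a40 came nearest, at a limma adjusted p of 0.0504 and an unadjusted p of 0.00421. At an unadjusted limma p under 0.05, 2 members were lower, Slc25a40 and Slc25a48. Slc25a48 had 0 reads in each cKO proximal library and 0, 2 and 5 in the WT proximal ones. As lower, edgeR called 1, Slc25a40, and DESeq2 called both. Of all genes 7.51% passed in edgeR and 13.4% in DESeq2. The proximal median was 0.19 over the members and 0.08 over all genes. Over the members it was 0.071 with TMM scaling, where that over all genes was -0.028, and 0.096 with DESeq2, 0.082 with edgeR and -0.0161 with the mitochondrial share as covariate.

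Slc25a28 was the one member called in both segments. The mitochondrial share of reads was lower in most cKO libraries, and with that share as a covariate limma left 0 calls in the distal segment (6 members at an unadjusted p under 0.05) and that of Slc25a28 in the proximal one (7.9% and 1.7% of all genes passed in that fit). In the distal segment edgeR called 10 members and DESeq2 12 without the covariate (24.5% and 28.5% of all genes). The proximal log2 differences changed little with the covariate, to 1.30 for Slc25a17, 0.96 for Slc25a12, 0.96 for Slc25a30 and 0.66 for Slc25a32, against 1.25, 0.88, 0.95 and 0.72 without it. Of the distal ones, Slc25a28 (0.71), Slc25a42 (0.70) and Slc25a53 (-1.53) stayed near their values of 0.66, 0.79 and -1.52. Slc25a45 (0.28), Slc25a15 (0.28) and Slc25a25 (0.35) were smaller than their values of 1.11, 0.74 and 0.96. With TMM scaling, which moved the median of all genes by -0.11 in the proximal comparison, 3 proximal members passed, 2 higher and 1 lower (8.25% of all genes). In the proximal segment 2 members were left when WT library 2 or 3 or any of the 3 cKO libraries was dropped (3.38% to 4.72% of all genes). In the distal segment 2 were left without WT library 1 or cKO library 1 (18.1% and 14.4% of all genes). There were 3 without WT library 2 (15.6%) and 5 without cKO library 2 (19.6%). Without cKO distal library 3 the distal differences of Slc25a3 (0.69), Slc25a4 (1.25), Slc25a10 (0.83), Slc25a11 (0.77) and Slc25a51 (0.52) also passed, and without WT distal library 3 those of Slc25a10 (0.90) and Slc25a37 (0.85). Without both cKO libraries numbered 1, 1 was left in the distal and 2 in the proximal segment (12.6% and 4.46% of all genes). The test of whether the genotype difference itself differed between segments called 0 of the 40 members, against 0.576% of all genes, 0.402% lower and 0.175% higher (limma, with 3 members higher and 5 lower at an unadjusted p under 0.05). For that difference edgeR called 0 members (0.344% of all genes). DESeq2 called 4 higher and 2 lower (3.46% of all genes), Slc25a48, near 0 in proximal libraries, among the higher ones. With the libraries paired by number limma called 1 lower (2.68% of all genes).

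Markers of several cell types differed between genotypes as well. Of 10 enterocyte markers 4 were higher in cKO than in WT distal libraries. Of 8 epithelial markers 3 were higher in cKO in the distal and 1 in the proximal segment, and 0 lower (medians 0.49 and -0.07). Of 7 fibroblast markers 0 were lower in cKO in the distal and 1 in the proximal segment, and 0 higher (medians -0.99 and -1.74). The B and plasma cell sum (8 genes) was 247 to 591 in cKO distal, 429.7 to 737 in cKO proximal, 9315 to 22063 in WT distal and 1518 to 4615 in WT proximal libraries, with 8 of 8 lower in cKO in the distal and 5 in the proximal segment. The cycling cell sum (10 genes) was 2366 to 4051 in cKO distal, 2721 to 3183 in cKO proximal, 6898 to 8733 in WT distal and 2345 to 3448 in WT proximal libraries, with 8 of 10 lower in cKO than in WT distal libraries. The myeloid sum (8 genes) was 4263 to 7044 in cKO distal, 3503 to 4684 in cKO proximal, 6406 to 26209 in WT distal and 11494 to 18869 in WT proximal libraries, with 4 of 8 lower in cKO in each segment. The T cell sum (8 genes) was 1656 to 3986 in cKO distal, 8093 to 18352 in cKO proximal, 1518 to 3199 in WT distal and 10792 to 29062 in WT proximal libraries, with 2 lower in cKO in the distal and 1 in the proximal segment. No gene of these lists was at 0 in a whole group. Their part in the members' genotype differences was not tested.

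**Figure D3:**
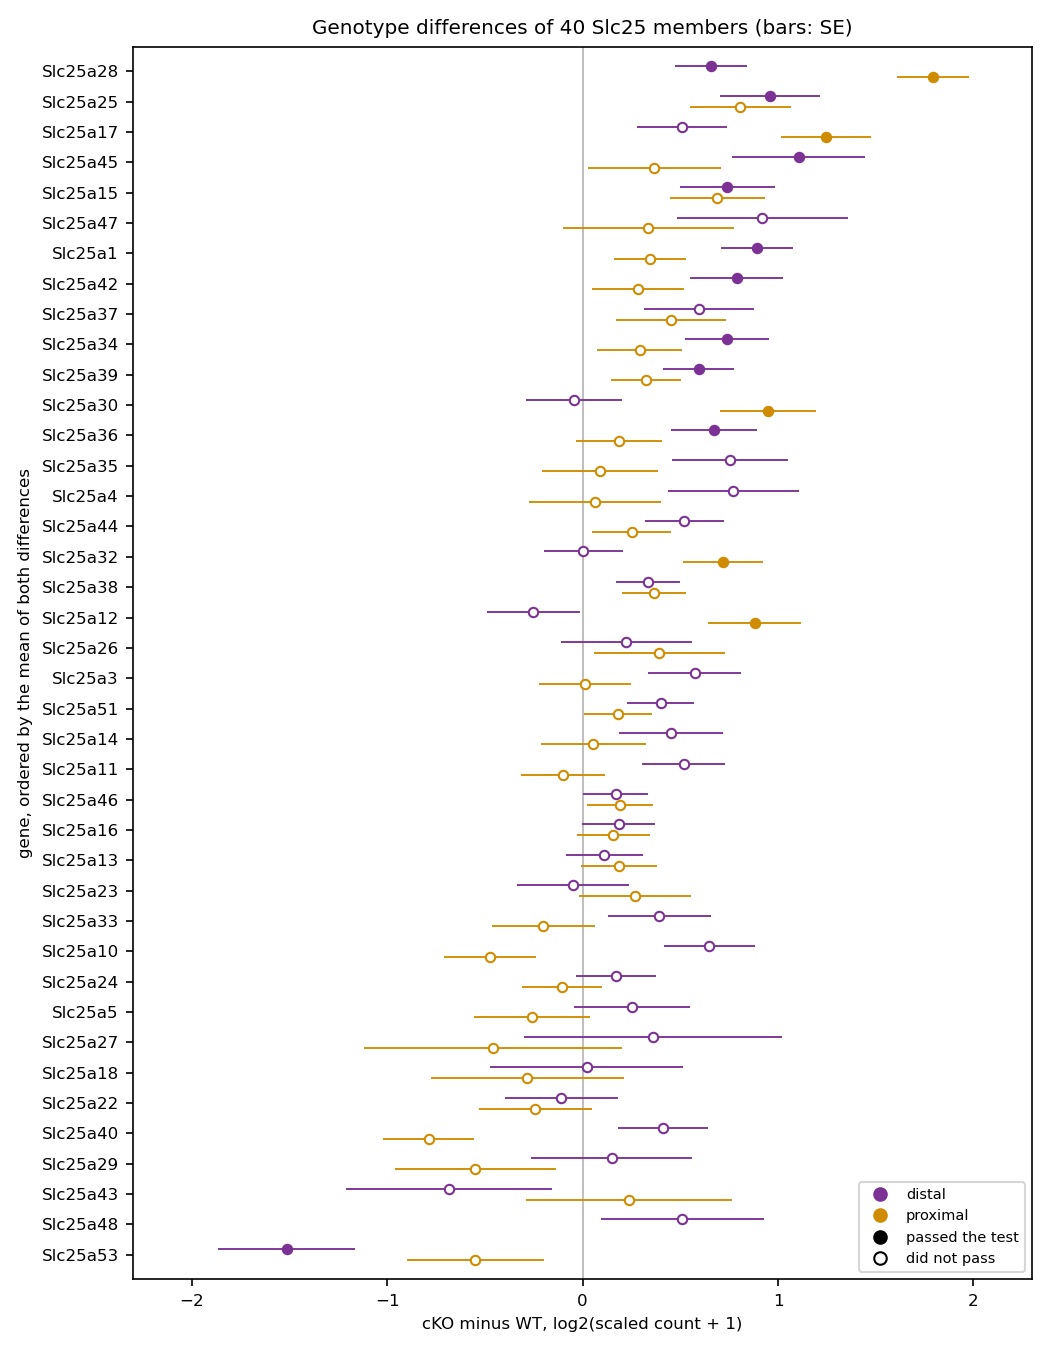
Difference of cKO minus WT libraries on the log2(scaled count + 1) scale for each member, with its standard error, in the distal (purple) and proximal (ochre) segments; filled points passed the test. Slc25a28 passed in both segments (0.66 distal, 1.79 proximal), and Slc25a53 (-1.52) is the lowest in the distal segment. Slc25a48 has no proximal point, since both proximal groups were at or under 3 reads on average.

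Of the ADP/ATP exchangers, Slc25a4 was higher in the distal segment of both genotypes and Slc25a5 lower in that of WT. Slc25a5 (ANT2), the form of proliferating and most other tissues, was at 25020.3, 21559 and 14596 in cKO distal, 25759, 27208 and 25612 in cKO proximal, 13324, 17227 and 20255 in WT distal and 28411, 31027 and 34774 in WT proximal libraries. All WT distal libraries lay below all WT proximal ones, and the same held in cKO, with log2 difference -0.91, SE 0.30, limma adjusted p = 0.0392 in WT and log2 difference -0.40, SE 0.30, limma adjusted p = 0.461 in cKO. The WT call was lost in 11 of 21 alternative settings, among them the omission of any single WT library other than distal 3. Slc25a4 (ANT1), the exchanger of heart and skeletal muscle, was at 1992, 2338 and 795 in cKO distal, 216, 314 and 417 in cKO proximal, 832, 870.4 and 1028 in WT distal and 279.9, 346 and 256 in WT proximal libraries. Each distal library lay above each proximal library of its genotype, and cKO distal library 3 lay below the other two. On the fitted scale the distal level was 5.07-fold the proximal one in cKO and 3.10-fold in WT (log2 difference 2.34, SE 0.34, limma adjusted p = 0.000393 in cKO, log2 difference 1.63, SE 0.34, limma adjusted p = 0.00323 in WT). Both calls held in each alternative setting. Between genotypes Slc25a4 differed by 0.77 in the distal segment (limma adjusted p = 0.111), and by 0.06 in the proximal one, with libraries that overlapped in both. Without cKO distal library 3 the distal difference was 1.25 (limma adjusted p = 0.0028).

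Of the RPKM of both exchangers, Slc25a4 made up 5.33 ± 1.69% in cKO distal, 0.834 ± 0.273% in cKO proximal, 3.67 ± 0.439% in WT distal and 0.654 ± 0.133% in WT proximal libraries (SD, n = 3), a pair chosen after its values were seen. Smooth muscle markers summed, over 6 genes, to 113 to 218 in cKO distal, 38.4 to 48.7 in cKO proximal, 195 to 498 in WT distal and 66.6 to 149 in WT proximal libraries, with 3 of the 6 passing as higher in the distal segment of each genotype and 0 of the 6 at 0 in a whole group. Their part in the Slc25a4 difference was not tested. Transcripts of Slc25a5 share at least 96.8% of their bases with Gm5529 and Gm5560 over stretches of up to 900 bases, so reads of these copies may be counted in it.

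The phosphate carrier Slc25a3 was also lower in the WT distal segment. It stood at 16991, 13967 and 11966 in cKO distal, 22197, 23265 and 20419 in cKO proximal, 8470.1, 9957 and 10232 in WT distal and 22200.2, 22648 and 20423 in WT proximal libraries. WT distal libraries reached at most 10232, against at least 20423 in WT proximal ones (log2 difference -1.19, SE 0.24, limma adjusted p = 0.00259). In cKO the groups were also apart but limma's test was not passed (-0.63, limma adjusted p = 0.112), while DESeq2 called the difference (-0.60, adjusted p = 3.52e-05). Its cKO distal libraries all lay above the WT distal ones, 0.57 on the log2 scale (limma adjusted p = 0.0934), which passed with DESeq2 (0.49, adjusted p = 0.000652) and without cKO distal library 3 (limma adjusted p = 0.038).

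The carriers of ATP-Mg against phosphate set the matrix pool of adenine nucleotides and respond to calcium. Slc25a25 stood at 833, 657 and 457 in cKO distal, 909, 607 and 893 in cKO proximal, 231, 348 and 421 in WT distal and 501, 396 and 462 in WT proximal libraries. Each cKO distal library lay above each WT distal one (log2 difference 0.96, SE 0.26, limma adjusted p = 0.0152), and each cKO proximal library above each WT proximal one without passing in limma (0.81, limma adjusted p = 0.0698), though with DESeq2 (adjusted p = 0.0272). The distal call was lost without WT library 1 or cKO library 1. Slc25a24 was the most abundant of the 3 at 66.7 ± 20.3 RPKM in cKO distal, 44.7 ± 2.97 in cKO proximal, 66.4 ± 11.9 in WT distal and 47.9 ± 3.05 in WT proximal libraries, and did not pass in limma in any comparison. DESeq2 (0.54, adjusted p = 0.00985) and the fit with the mitochondrial share as covariate (0.61, limma adjusted p = 0.0409) called it higher in cKO distal than in cKO proximal libraries. Slc25a23 ranged over 40 to 97 reads and did not pass either. Slc25a25 shares 379 exon bases with Naif1 on the opposite strand, and whether the counting used strand is not given in the sources used here.

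Among the carriers of di- and tricarboxylates, the 3 abundant ones were lower in WT distal libraries. Slc25a1, the citrate carrier, stood at 3921, 3271 and 2673 in cKO distal, 3904, 4999.6 and 3727 in cKO proximal, 1612, 1637 and 2030.3 in WT distal and 3414, 3331 and 3126 in WT proximal libraries. WT distal libraries lay below every other group, with log2 difference -0.91, SE 0.19, limma adjusted p = 0.00309 for the WT segments and log2 difference 0.89, SE 0.19, limma adjusted p = 0.00346 for cKO against WT in the distal segment. Slc25a1 was called in the distal genotype comparison in 20 of 21 alternative settings, the exception being the mitochondrial share as covariate. Slc25a10, which exchanges malate and succinate for phosphate, stood at 4363, 3512 and 2667 in cKO distal, 3686, 4365 and 3393 in cKO proximal, 1708, 1988 and 3118 in WT distal and 5558, 5399 and 4894 in WT proximal libraries. It was lower in WT distal than in WT proximal libraries (log2 difference -1.26, SE 0.24, limma adjusted p = 0.00168), while cKO distal and proximal libraries overlapped (-0.14, limma adjusted p = 0.778). Its genotype difference was 0.65 (limma adjusted p = 0.0586) in the distal and -0.48 (limma adjusted p = 0.227) in the proximal segment. The distal difference passed with DESeq2 (adjusted p = 0.0447), without WT distal library 3 (0.90, limma adjusted p = 0.00802) and without cKO distal library 3 (0.83, limma adjusted p = 0.0201).

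Slc25a11, the oxoglutarate-malate carrier of the malate-aspartate shuttle, stood at 2529, 2088 and 1359.96 in cKO distal, 2704, 2949.6 and 2214 in cKO proximal, 1181, 1365 and 1522 in WT distal and 2853, 2966 and 2569.7 in WT proximal libraries. It too was lower in WT distal libraries (log2 difference -1.05, SE 0.21, limma adjusted p = 0.00303) and did not pass in cKO (-0.43, limma adjusted p = 0.236). Slc25a34, an orphan placed with these carriers, stood at 540.3, 411 and 390.2 in cKO distal, 456, 360.2 and 398 in cKO proximal, 222, 223 and 375 in WT distal and 309, 347 and 332 in WT proximal libraries. Its cKO distal libraries lay above the WT distal ones (log2 difference 0.74, SE 0.22, limma adjusted p = 0.023), a call lost without WT library 1, WT library 2 or cKO library 1. The related Slc25a35 stood at 184, 154 and 296 in cKO distal, 64.6, 60.4 and 114 in cKO proximal, 108, 116 and 138 in WT distal and 65.2, 74.1 and 76.3 in WT proximal libraries. It was higher in cKO distal than in cKO proximal libraries (log2 difference 1.40, SE 0.30, limma adjusted p = 0.00697), a call lost without both cKO libraries numbered 1. In WT it did not pass (0.74, limma adjusted p = 0.0875), but did with the libraries paired by number (adjusted p = 0.0222). Slc25a35 shares 1151 exon bases with Rangrf, Slc25a10 228 with Gm11788 and Slc25a11 189 with Rnf167, each on the opposite strand.

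Both aspartate-glutamate carriers export aspartate for the malate-aspartate shuttle, and their segment patterns differed. Slc25a13 (citrin) stood at 343, 451 and 241 in cKO distal, 838, 824 and 801 in cKO proximal, 289.8, 336 and 305 in WT distal and 751, 702 and 714 in WT proximal libraries. Every distal library lay below every proximal one, with log2 difference -1.29, SE 0.20, limma adjusted p = 0.000586 in cKO and log2 difference -1.22, SE 0.20, limma adjusted p = 0.000571 in WT. Neither segment gave a genotype call for it (0.11 distal, 0.19 proximal). Slc25a12 (aralar) stood at 267, 244 and 206 in cKO distal, 406, 515 and 345 in cKO proximal, 262, 375 and 232 in WT distal and 172, 274 and 244 in WT proximal libraries. It was higher in cKO proximal than in WT proximal libraries (log2 difference 0.88, SE 0.24, limma adjusted p = 0.0372) and lower in cKO distal than in cKO proximal ones (log2 difference -0.81, SE 0.24, limma adjusted p = 0.0452). Both calls were lost when any single library of either group compared was dropped. Slc25a12 made up 27.0 ± 4.63% of the pair's RPKM in cKO distal, 20.9 ± 3.19% in cKO proximal, 32.2 ± 4.20% in WT distal and 14.1 ± 3.22% in WT proximal libraries (SD, n = 3). A stretch of 247 bases in Slc25a12 is 99.6% identical to Adpgk.

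Slc25a15, the ornithine carrier that feeds citrulline synthesis, stood at 4774, 4281 and 2617 in cKO distal, 6213, 5888 and 5785 in cKO proximal, 1654, 2421 and 2864 in WT distal and 3226, 4004 and 3918 in WT proximal libraries. All cKO proximal libraries lay above all WT proximal ones, and 2 of 3 cKO distal libraries above all WT distal ones. The distal genotype difference passed (log2 difference 0.74, SE 0.24, limma adjusted p = 0.039), and the proximal one was 0.69 (limma adjusted p = 0.0979). WT distal libraries were lower than WT proximal ones (log2 difference -0.71, SE 0.24, limma adjusted p = 0.0468). Each of these calls was lost in 12 or more of 21 settings, among them the omission of WT distal library 1 or 2, and the cKO segment difference passed with the libraries paired by number (-0.66, adjusted p = 0.0457, against 0.106 without the pairing).

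Slc25a48, which takes choline into mitochondria, was all but restricted to the distal segment. Its reads numbered 605, 1019 and 819 in cKO distal libraries and 0, 0 and 0 in cKO proximal ones, and 366, 451 and 746 in WT distal libraries and 0, 2 and 5 in WT proximal ones. The scaled counts were 642, 846 and 872 in cKO distal and 447, 464 and 787 in WT distal libraries. Against a floor of 3 reads per library, the cKO distal level was at least 261.8-fold higher than the cKO proximal one. In WT the fitted log2 difference was 7.08 (SE 0.42, limma adjusted p = 1.39e-07), a value that depends on the 1 added to low counts. Between genotypes the distal libraries overlapped (0.51, limma adjusted p = 0.407). Slc25a48 ranked 15 of 40 by RPKM in cKO distal and in WT distal libraries, and 40 of 40 in both proximal groups. The gene lies on chromosome 13 from 56438355 to 56474239.

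Slc25a45 ran the other way. It stood at 2327, 2039 and 749 in cKO distal, 6513, 7222 and 5422 in cKO proximal, 499, 801 and 891 in WT distal and 4918, 4909 and 4919 in WT proximal libraries. Distal libraries lay below proximal ones in both genotypes, 4.15-fold in cKO (log2 difference -2.05, SE 0.34, limma adjusted p = 0.00129) and 6.93-fold in WT (log2 difference -2.79, SE 0.34, limma adjusted p = 6.8e-05). cKO distal libraries 1 and 2 lay above the WT distal ones and library 3 among them, and the distal genotype difference passed (log2 difference 1.11, SE 0.34, limma adjusted p = 0.0298), a call lost without WT library 1 or 2 or cKO library 1 or 2. By RPKM, Slc25a45 ranked 10 in the family in cKO distal, 3 in cKO proximal, 13 in WT distal and 3 in WT proximal libraries. The gene lies on chromosome 19 from 5877808 to 5885878.

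Of the other amino acid carriers, Slc25a44 was called in some settings only. Slc25a22 and Slc25a18 (glutamate), Slc25a29 (basic amino acids), Slc25a38 (glycine, needed for heme) and Slc25a47 (a liver carrier) passed in no comparison, in limma or in any alternative. Slc25a44 (branched-chain amino acids) passed in no limma comparison, with -0.54, limma adjusted p = 0.0666 between the WT segments. DESeq2 (adjusted p = 0.0226), edgeR (0.0311), TMM scaling (0.0353) and the omission of WT proximal library 3 (0.046) called it lower in WT distal than in WT proximal libraries. Without WT proximal library 1 it was called higher in cKO than in WT distal libraries (0.52, limma adjusted p = 0.0202). The genotype differences of these 6 carriers lay between -0.55 (Slc25a29, proximal) and 0.92 (Slc25a47, distal).

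**Figure D4:**
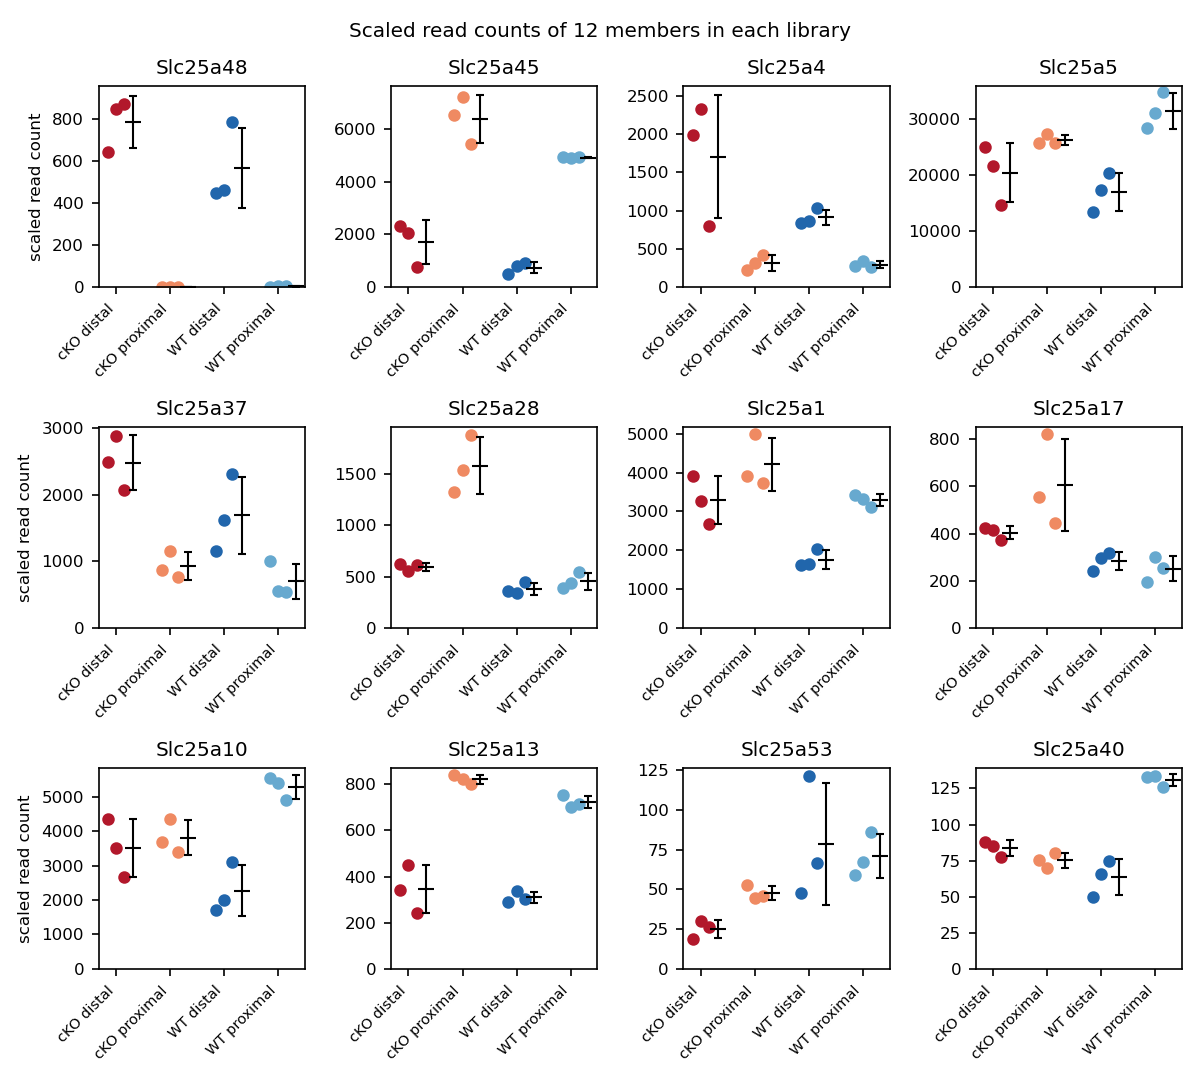
Scaled read counts of 12 members in each library (points) with the mean and SD of each group of 3 (black); each panel starts at 0 and has its own scale. Slc25a48 is near 0 in the 6 proximal libraries, and Slc25a28 is highest in the 3 cKO proximal libraries (1321 to 1879).

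Of the 8 carriers of cofactors and nucleotides, 2 were higher in cKO in each segment (13.3% of all genes in the distal and 4.21% in the proximal one), Slc25a36 and Slc25a42 in the distal and Slc25a17 and Slc25a32 in the proximal one. Slc25a17, which carries coenzyme A and related cofactors and sits in the peroxisome membrane, stood at 425, 414 and 373 in cKO distal, 553, 821 and 446 in cKO proximal, 242, 295 and 318 in WT distal and 196, 301 and 256 in WT proximal libraries. It was 2.37-fold higher in cKO than in WT proximal libraries (log2 difference 1.25, SE 0.23, limma adjusted p = 0.00601), with the groups apart, and the distal difference was 0.51 (limma adjusted p = 0.123). Slc25a42, the mitochondrial coenzyme A carrier, stood at 196, 194 and 224 in cKO distal, 199.95, 203 and 221 in cKO proximal, 97.4, 94.5 and 178 in WT distal and 173, 157 and 183 in WT proximal libraries. It was higher in cKO than in WT distal libraries (log2 difference 0.79, SE 0.24, limma adjusted p = 0.0257), with WT distal library 3 nearest to the cKO values. That call was lost without any one of the 6 distal libraries other than WT 3. Slc25a32, which carries folate and FAD, stood at 167, 212 and 159 in cKO distal, 299.9, 369 and 356 in cKO proximal, 155, 193 and 188 in WT distal and 168, 211 and 247 in WT proximal libraries. It was higher in cKO than in WT proximal libraries (log2 difference 0.72, SE 0.20, limma adjusted p = 0.0447) and lower in cKO distal than in cKO proximal ones (log2 difference -0.93, SE 0.20, limma adjusted p = 0.00893). The genotype call was lost without any one of the 6 proximal libraries.

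Slc25a51, the carrier of NAD, stood at 2122, 2175 and 1666 in cKO distal, 3315, 3214 and 3385 in cKO proximal, 1208, 1639 and 1693 in WT distal and 2664, 2926 and 3175 in WT proximal libraries. It was lower in the distal segment of both genotypes (log2 difference -0.74, SE 0.17, limma adjusted p = 0.0134 in cKO, log2 difference -0.96, SE 0.17, limma adjusted p = 0.00137 in WT), and the cKO call was lost without cKO proximal library 1 or 3. Slc25a33, a pyrimidine nucleotide carrier, was at 58.7 ± 1.58 in cKO distal, 94.0 ± 20.4 in cKO proximal, 44.6 ± 3.98 in WT distal and 109 ± 27.9 in WT proximal libraries (SD, n = 3), lower in the WT distal segment (-1.24, limma adjusted p = 0.00403). Slc25a36, its paralog, was higher in cKO than in WT distal libraries (0.67, limma adjusted p = 0.0374), a call lost without WT library 1 or 2 or cKO library 1 or 2. Its WT segment difference of -0.61 passed with the libraries paired by number (adjusted p = 0.0356, against 0.0584), with DESeq2 (0.0285), with edgeR (0.0382) and with TMM scaling (0.0352). Slc25a16, linked to coenzyme A supply, and Slc25a26, the S-adenosylmethionine carrier, passed in no comparison.

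Of the iron carriers, Slc25a28 differed between genotypes in both segments and between the segments of cKO. Slc25a37 differed between segments in both genotypes. Slc25a28 (mitoferrin 2), the iron importer of non-erythroid cells, stood at 623, 552 and 611 in cKO distal, 1321, 1543 and 1879 in cKO proximal, 356, 336 and 446 in WT distal and 386, 434 and 545 in WT proximal libraries. The 3 cKO proximal libraries lay above the other 9. The gene was 3.47-fold higher in cKO than in WT proximal libraries (log2 difference 1.79, SE 0.18, limma adjusted p = 8.54e-05) and 1.58-fold higher in cKO than in WT distal ones (log2 difference 0.66, SE 0.18, limma adjusted p = 0.0182). In cKO it was lower in the distal segment (log2 difference -1.39, SE 0.18, limma adjusted p = 0.000201), and in WT the segments overlapped (-0.26, limma adjusted p = 0.346). The genotype difference in the distal minus that in the proximal segment was -1.14 (limma adjusted p = 0.0693), and passed with the libraries paired by number (adjusted p = 0.028), with DESeq2 (0.00952) and without WT proximal library 3 (0.0432). The proximal call held in each of the 21 alternative settings. The distal one held in 16, and was lost without WT distal library 1 or 2 or cKO distal library 1.

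Slc25a37 (mitoferrin 1), the iron importer of developing red cells, stood at 2493, 2889 and 2068 in cKO distal, 865, 1157 and 765 in cKO proximal, 1157, 1621 and 2304 in WT distal and 1008, 548 and 543 in WT proximal libraries. It was higher in distal than in proximal libraries in both genotypes (log2 difference 1.43, SE 0.28, limma adjusted p = 0.00446 in cKO, log2 difference 1.28, SE 0.28, limma adjusted p = 0.00481 in WT). The genotype differences of 0.59 (limma adjusted p = 0.141) in the distal and 0.45 (limma adjusted p = 0.342) in the proximal segment did not pass. Slc25a37 made up 71.9 ± 4.38% of the RPKM of both mitoferrins in cKO distal, 27.0 ± 6.05% in cKO proximal, 72.8 ± 5.06% in WT distal and 48.1 ± 12.4% in WT proximal libraries (SD, n = 3). Red cell markers (5 genes) summed to 919 to 3497 in cKO distal, 1414 to 4928 in cKO proximal, 2010.2 to 5499 in WT distal and 3376 to 5534 in WT proximal libraries, and 0 of 5 passed in any comparison, with none at an unadjusted limma p under 0.05 and 0 by edgeR or DESeq2. Their part in the Slc25a37 difference was not tested. Stretches of up to 382 bases of Slc25a37 are identical to Gm16867, Gm31748 and Gm37847.

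**Figure D5:**
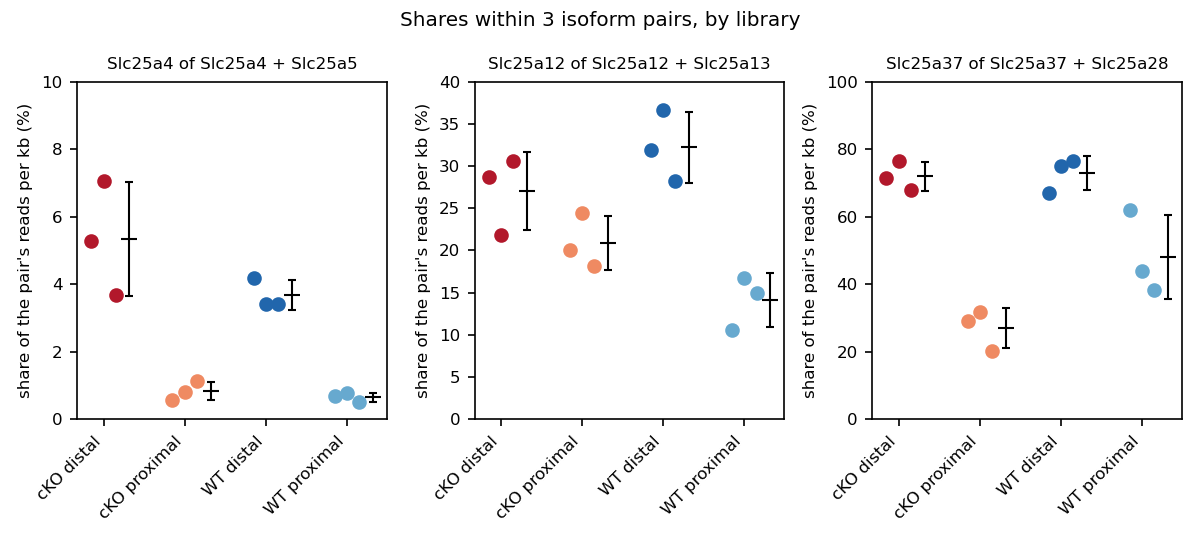
Share of the first gene in the summed RPKM of a pair, in percent, for each library (points), with the mean and SD of each group of 3 (black): Slc25a4 of the ADP/ATP exchangers, Slc25a12 of the aspartate-glutamate carriers and Slc25a37 of the mitoferrins. Slc25a4 lies at 3.67% to 7.05% in cKO distal and at 0.581% to 1.12% in cKO proximal libraries, and Slc25a37 at 67.8% to 76.5% in cKO distal and at 20.2% to 31.8% in cKO proximal ones.

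Slc25a39 imports glutathione into mitochondria, and Slc25a40 is its paralog. Slc25a39 stood at 2511, 2376 and 1741 in cKO distal, 3726, 4467 and 3395 in cKO proximal, 1391, 1353 and 1601 in WT distal and 2765, 3398 and 3063 in WT proximal libraries. It was lower in distal than in proximal libraries of both genotypes (log2 difference -0.81, SE 0.18, limma adjusted p = 0.01 in cKO, log2 difference -1.08, SE 0.18, limma adjusted p = 0.000764 in WT) and higher in cKO than in WT distal libraries (log2 difference 0.59, SE 0.18, limma adjusted p = 0.0277). The genotype call was lost without WT library 1 or 2 or cKO library 1 or 2. Slc25a40, present at 0.637 RPKM against 58.4 for Slc25a39, stood at 87.9, 85.5 and 77.6 in cKO distal, 75.7, 69.9 and 80.2 in cKO proximal, 49.9, 65.8 and 74.8 in WT distal and 133, 134 and 126 in WT proximal libraries. The 3 WT proximal libraries lay above the other 9 (log2 difference -1.05, SE 0.23, limma adjusted p = 0.00501 for the WT segments), and in cKO the segments overlapped (0.15, limma adjusted p = 0.75). In the proximal segment cKO libraries were all below WT ones, with a difference of -0.79 at a limma adjusted p of 0.0504, and 7 of 21 alternative settings called it, DESeq2, edgeR and TMM scaling among them. Up to 724 bases of Slc25a40 are 96.3% identical to Gm5066.

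Of the uncoupling protein-like carriers, whose solutes are little known, Slc25a30 was called. It stood at 79.5, 111 and 88.3 in cKO distal, 238, 246 and 218 in cKO proximal, 107, 113 and 70.6 in WT distal and 134, 96.5 and 136 in WT proximal libraries. The 3 cKO proximal libraries lay above the other 9, with log2 difference 0.95, SE 0.25, limma adjusted p = 0.0321 against WT and log2 difference -1.34, SE 0.25, limma adjusted p = 0.00283 between the cKO segments. The genotype call was lost without WT proximal library 2 or 3 or any one cKO proximal library. Slc25a14 and Slc25a27 passed in no comparison. Among the remaining members, the orphan Slc25a53 stood at 19.1, 29.9 and 26.6 in cKO distal, 52.5, 44.5 and 45.7 in cKO proximal, 47.5, 121 and 66.4 in WT distal and 58.9, 67.3 and 86.0 in WT proximal libraries. It was 2.86-fold lower in cKO than in WT distal libraries (log2 difference -1.52, SE 0.35, limma adjusted p = 0.00648), with the groups apart and WT distal library 2 high within its group. That call was lost with the mitochondrial share as covariate and without both cKO libraries numbered 1. The B and plasma cell and cycling markers given above were lower in the same comparison. Their part in the Slc25a53 difference was not tested.

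Slc25a43 stood at 8.48, 0.830 and 3.19 in cKO distal, 13.1, 13.8 and 14.0 in cKO proximal, 4.87, 7.19 and 5.27 in WT distal and 11.6, 16.8 and 7.52 in WT proximal libraries, and was lower in cKO distal than in cKO proximal libraries (log2 difference -1.81, SE 0.53, limma adjusted p = 0.043), a call held in 8 of 20 alternative settings, at 0 to 14 reads, and lost without any one cKO proximal library or cKO distal library 2 or 3. Slc25a46, an outer membrane protein that shapes mitochondria, passed in no comparison.

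Other genes of the same pathways gave a setting for these values. To set beside their counts, 12.2% of all genes were lower and 11.9% higher between the WT segments (median 0.04), 6.36% lower and 4.16% higher between the cKO segments (median -0.02), 13.3% higher and 11.7% lower in the distal genotype comparison (median 0.06) and 4.21% higher and 4.05% lower in the proximal one (median 0.08). Enzymes of the malate-aspartate and citrate shuttles, which use the solutes of Slc25a1, Slc25a11, Slc25a12 and Slc25a13, were lower in WT distal than in WT proximal libraries for 9 of 10 genes, with 1 higher (median -1.49 on the log2 scale). Me1, malic enzyme, differed by -3.52 (limma adjusted p = 4.64e-07), Got1, aspartate aminotransferase, by -1.65 and Mdh2, malate dehydrogenase, by -2.13. In cKO 5 of the 10 were lower in the distal segment and 0 higher (median -0.86). Between genotypes 3 were higher in the distal segment, Gpd1 (0.88), Got1 (0.65) and Gpd2 (0.69), and 1 lower in the proximal one, Me1 (-1.06). Me1 also differed in the genotype effect between segments (1.68, limma adjusted p = 0.0452). For that difference edgeR called 0 of the 10 and DESeq2 1.

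ATP synthase, which uses the ADP and phosphate brought in by Slc25a5 and Slc25a3, had 11 of 15 subunit genes lower and 0 higher in WT distal than in WT proximal libraries (median -0.81). Atp5g3 differed by -1.23 (limma adjusted p = 0.00216), Atp5f1 by -0.94 and Atp5h by -0.89. In the cKO segments and in both genotype comparisons 0 of 15 passed, with medians of -0.43 between the cKO segments, 0.37 for the distal and 0.02 for the proximal genotype comparison, and none of the 15 passed the test of the genotype difference between segments. In these comparisons 3 subunits lower between the cKO segments and 3 higher in the distal genotype comparison had an unadjusted limma p under 0.05, DESeq2 called 3 and 1, and edgeR 0. Of 13 other genes of mitochondrial carriers, transporters and their relatives, 6 were lower in WT distal than in WT proximal libraries (median -0.67), led by the uncoupling protein Ucp2 (-1.50, limma adjusted p = 0.00185) and the pyruvate carrier subunit Mpc2 (-0.92), and Ucp2 was also lower in cKO distal than in cKO proximal libraries (-2.10, limma adjusted p = 0.000249). In cKO against WT distal libraries 3 of these were higher (the outer membrane protein Mtch2 0.78, Sfxn1 0.63, the calcium channel Mcu 0.58) and 2 lower (Sfxn5 -1.57, Sfxn3 -0.93). Of 12 genes of outer membrane pores and protein import, 3 were lower in WT distal libraries (Tomm70a -1.10, Vdac1 -0.63, Timm23 -0.49), 2 in cKO distal ones, and Timm50 was higher in cKO in both segments (0.49 distal, 0.57 proximal), a call that edgeR did not make in either segment.

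Of 10 enzymes of ornithine and citrulline, which act on both sides of Slc25a15, 3 were higher and 2 lower in the WT distal segment (median -0.15), 1 and 2 in the cKO distal segment (median -0.23), and 2 and 1 in cKO against WT distal libraries (median 0.60), a share near the 25% of all genes called there. Cps1, carbamoyl phosphate synthetase, was higher in cKO in both segments (1.29 distal, limma adjusted p = 0.00437, and 1.45 proximal, limma adjusted p = 0.00796) and lower in the distal segment of both genotypes. Asl was higher (0.71) and Ass1 lower (-1.26) in cKO than in WT distal libraries. In that comparison edgeR called 0 of the 10 enzymes lower and DESeq2 1. Arg2, mitochondrial arginase, was lower in the distal segment (-2.44 in cKO, -3.00 in WT), and Pycr1 higher (1.24 in cKO, 1.34 in WT). Of 12 heme and iron-sulfur genes, which use the iron brought in by the mitoferrins, 4 were higher in cKO than in WT distal libraries and 0 lower (median 0.50). They were Cpox (1.06, limma adjusted p = 0.00182), Alad, Nfs1 and Alas1 (0.65). In the distal segment 5 were lower in WT (median -0.44) and 1 in cKO (median -0.28). Cpox was also higher in cKO proximal libraries (1.31, limma adjusted p = 0.00203) and lower in the distal segment of both genotypes (-1.94 in cKO, -1.70 in WT). Of 11 regulators of mitochondrial biogenesis, 1 was higher and 3 lower in the WT distal segment (median 0.23), 1 lower in the cKO one (median -0.11) and 2 higher in cKO than in WT distal libraries (median 0.02). Ppargc1b was lower in the distal segment (-1.41 in cKO, -0.86 in WT), and Ppara was higher in cKO than in WT distal libraries (1.51, limma adjusted p = 0.00872). Of 12 mitochondrially encoded mRNAs, limma called mt-Nd3 and mt-Co3 lower in cKO in both segments (mt-Nd3 -0.88 distal and -1.14 proximal), with medians over the 12 of -0.88 in the distal and -1.04 in the proximal segment. As lower, edgeR called 1 and DESeq2 3 of the 12 in the distal segment, and 2 and 7 in the proximal one.

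Between the role groups, counts per comparison were small. In the WT segments 2 of 6 carriers of adenine nucleotides and phosphate were lower and 1 higher, 3 of 5 of di- and tricarboxylates lower and 0 higher, 3 of 11 of amino acids (Slc25a45 and Slc25a48 counted here) lower and 1 higher, 2 of 8 of cofactors lower and 0 higher, and 2 of 4 of iron and glutathione lower and 1 higher. The 1 higher in the amino acid group was Slc25a48, the choline carrier. The medians of these 5 groups were -0.31, -0.91, -0.04, -0.43 and -0.65. Over all genes 12.2% were lower and 11.9% higher, with a median of 0.04. In the distal genotype comparison the carriers of di- and tricarboxylates had the highest median of them, 0.74, with 2 of 5 higher, against 13.3% of all genes higher and a median of 0.06. The median of the genotype difference in the distal minus that in the proximal segment was 0.27 over the 40 members.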

How the data were processed

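RNA-seq of mouse small intestine was analysed in 12 libraries, 3 in each of 4 groups. The labels' protocols name Trizol for the extraction and, for library preparation, NuGEN's Ovation system. STAR, without a version, DESeq2 1.28.1 and the mm10 build appear in the submitters' processing notes. The deposited values are a signal: all 206100 values of the 12 columns were whole multiples of their column's step within 0.0015 steps, so they are the authors' gene counts plus 1 divided by a size factor, and the reads were recovered from them. The deposited table's log2 fold change, score and p-value columns were not used. No value column was left unmapped (0).

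Members and gene lists were chosen with earlier results of these data known. Some genes of the family are not reported here. limma 3.58.1 (R 4.3.3, trend) was fitted to log2(value + 1) over 17175 genes with 4 group means, and p-values were adjusted by Benjamini-Hochberg with a threshold of 0.05, with no filter on low values. RPKM uses the exon length of GENCODE M21. Every library's value is given for members that passed (up to 6 in each direction of a comparison), the ADP/ATP, phosphate, aspartate-glutamate and ornithine carriers, and the 3 highest and 3 lowest members. Slc25a11 and Slc25a40, also given in full, were chosen after their values were seen. Of each other gene list, counts, the median and up to 4 genes of smallest p are given.

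Deviations of same-numbered libraries correlated weakly between segments (r = 0.158, 0.215 and 0.323 in cKO, 0.314, 0.173 and 0.308 in WT). No r of differently numbered libraries was set beside these, so they do not establish a pairing. The replicate block takes the numbers to pair segments as an assumption. Such libraries did not deviate together between genotypes (r between -0.148 and 0.0487). The main fit, and the main calls between segments, did not use this pairing. With the block 28.7% of all genes passed between the WT segments, 15.1% between the cKO segments and 2.68% for the genotype difference between segments. Without it 24.1%, 10.5% and 0.576% did. Of the members 17, 14 and 1 passed with the block, against 15, 13 and 0 without it. Alternatives were TMM scaling, a pseudocount of 0.5, a mean value of at least 10, DESeq2 1.42.0 and edgeR 4.0.16 on the recovered counts, the replicate block, the mitochondrial share as covariate, omission of each library or of both cKO libraries numbered 1, and a fit of only the groups compared. The fit was tested on simulated data.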

Additional observations from a re-analysis of the deposited data

How the results depend on the processing

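Among alternative values for single members and for the medians, 4050 counted as unchanged, 143 lost the call and 52 gained one. For a member, unchanged means the same side of the threshold, and a change of sign counted only where a fit called it. For a median, it means a move smaller than the members' median standard error. With TMM scaling 24 members lay above 0 in the proximal genotype comparison, against 28. 1 value counted as reversed, the median over the members in the proximal genotype comparison. It was -0.0161 with the mitochondrial share as covariate, against 0.19. In the proximal genotype comparison 5 members passed. With TMM scaling or edgeR 3 did (8.25% and 7.51% of all genes), and with DESeq2 8 (13.4%). With the mitochondrial share as covariate 1 passed (1.7%), and without both cKO libraries numbered 1 there were 2 (4.46%). Only the groups compared gave 8 (9.66%), and leaving out single libraries gave 2 to 8 (3.38% to 9.9%). In the distal genotype comparison 10 passed, 0 of them in every setting. The covariate gave 0 (7.9% of all genes), and omission of both cKO libraries numbered 1 gave 1 (12.6%). Only the groups compared gave 5 (17.5%), and leaving out single libraries 2 to 14 (14.4% to 28.8%). Between the cKO segments 13 passed (10.5% of all genes), against 7 without both cKO libraries numbered 1 (5.02%). Of the genotype difference between segments 0 members passed (0.576% of all genes), against 6 with DESeq2 (3.46%) and 1 with the replicate block (2.68%). Without single libraries 0 to 1 passed, at 0.0408% to 1.55% of all genes (Slc25a28 without WT proximal library 3, Slc25a10 without WT distal library 3).

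The counts between the WT segments stayed within 1.5 times of 15 in each setting. With the replicate block between genotypes, whose numbers do not pair libraries, Slc25a15 lost its distal call (adjusted p = 0.0543) and Slc25a35 gained one (adjusted p = 0.0419). Otherwise the block changed only calls given beside the results. The causes of these changes were not tested. DESeq2 gave no adjusted p for some low members. Slc25a18, Slc25a27 and Slc25a43 had at most 14 reads in any library, which limits their precision.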
